A study of Mus musculus with 12 samples.

Results

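The collagen genes were described in astrocytes sorted from the mouse spinal cord with and without a conditional knockout of the transcription factor gene Nkx6-1. Members were all entries of the deposited table whose symbol has the form Col, a number, a and a number. These were 44 of the 24421 entries. The fibrillar class held the 8 Col1, Col3, Col5 and Col11 genes, the basement membrane class held the 8 Col4, Col15 and Col18 genes, and the remaining 28 made up the other class. Col2a1, Col24a1 and Col27a1 also encode fibril-forming chains, but the rule places them among the others.

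Collagens are secreted or membrane-bound proteins in which 3 chains wind into a triple helix. Fibrillar collagens assemble into the fibrils of connective tissue, such as the meninges and the walls of larger vessels, whereas basement membrane collagens form the sheets beneath endothelium and around the central nervous system. In the brain and spinal cord, fibroblasts, pericytes and endothelial cells are known as the main producers of both kinds, and astrocyte endfeet contact the vascular and pial basement membranes.

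Cells carrying the Aldh1l1-GFP reporter, which labels astrocytes, were sorted by flow cytometry from male and female mice, and each combination of sex and genotype (Control or Nkx6-1 cKO) had 3 libraries, 12 in all. The labels do not give the driver of the Cre recombinase, the age of the animals or the origin of the replicates, so p-values reflect only the spread from library to library, which may be technical. Depth was 2246412 to 9054934 reads in genes. Astrocyte markers were present, with 12 of 12 listed genes read in every library, but so were markers of other cells, described further on.

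Library names follow the labels, and 3 labelled cKO libraries went against them. Nkx6-1, the targeted gene, had 0 reads in the libraries labelled cKO 1 and cKO 2 of both sexes, 2 to 19 reads in the 6 controls, and 18 and 19 reads in the libraries labelled male cKO 3 and female cKO 3. The library labelled male cKO 2 had 3546 Xist reads and 0 Y-linked reads, whereas the other male libraries had 422 to 2117 Y-linked reads. It also matched the library labelled female cKO 2 within sampling noise. The chi-square per degree of freedom between these libraries was 1.06 over all genes and 0.635 over the collagens, against at least 15.2 and 7.48 in the 65 other pairs. They are called the matching pair here. The limma comparisons are given with 12 libraries and again without the pair, which leaves 2 libraries in each cKO group. edgeR and DESeq2 were run with all 12 libraries only.

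The collagen chains that share a molecule are in several cases neighbours in the genome. In the GENCODE M21 annotation of GRCm38 (mm10), Col4a1 (chr8:11198423-11312826, minus strand) and Col4a2 (chr8:11312805-11449287, plus strand) overlap head to head by their first exons, with start sites 21 bases apart. Whether reads were counted by strand is not given in the sources used here, so reads in that overlap cannot be assigned. Col4a3 and Col4a4 on chromosome 1 start 72 bases apart, and Col4a5 and Col4a6 on chromosome X start 1309 bases apart. The 250 bases before the RefSeq start site were available for 35 of the 44 members. The CCAAT element was found on either strand in 12 of them, against 34.5% of all 27025 promoter windows, the GC box GGGCGG in 21, against 32.9%, and TATAAA in 5, against 13% of all. A match is a description of these letters and not a binding site.

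The windows of a fibrillar, a basement membrane and a transmembrane collagen gene are shown because these genes carry most of what follows. They lie on the plus strand of GRCm38.p6 at chr1:45311288-45311537 (Col3a1), chr4:47207762-47208011 (Col15a1) and chr11:51289670-51289919 (Col23a1). Capitals mark TATAAA in Col3a1 and the GC box, on the reverse strand, in Col23a1. The Col15a1 window holds none of the motifs searched.
Col3a1: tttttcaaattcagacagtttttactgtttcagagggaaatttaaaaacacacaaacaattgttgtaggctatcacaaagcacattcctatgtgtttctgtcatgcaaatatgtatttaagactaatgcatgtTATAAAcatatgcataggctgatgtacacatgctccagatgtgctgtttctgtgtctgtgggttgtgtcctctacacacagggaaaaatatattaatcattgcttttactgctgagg
Col15a1: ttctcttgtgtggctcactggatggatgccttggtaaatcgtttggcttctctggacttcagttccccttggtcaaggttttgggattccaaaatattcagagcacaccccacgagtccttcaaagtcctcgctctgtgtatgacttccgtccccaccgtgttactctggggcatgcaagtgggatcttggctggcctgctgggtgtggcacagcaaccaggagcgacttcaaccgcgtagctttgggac
Col23a1: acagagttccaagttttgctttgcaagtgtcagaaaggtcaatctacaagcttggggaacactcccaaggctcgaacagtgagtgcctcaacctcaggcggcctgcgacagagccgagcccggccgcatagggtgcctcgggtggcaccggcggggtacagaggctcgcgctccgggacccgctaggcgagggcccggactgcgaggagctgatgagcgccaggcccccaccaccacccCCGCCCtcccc

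Of the 44 collagen genes, 24 had reads in all 12 libraries and none was without reads everywhere. Tests were run on the 32 members that reached a normalized count (reads divided by 1 factor per library) of 10 or more in 3 or more libraries, namely all 8 fibrillar, 7 basement membrane and 17 other genes. The 12 left out were Col4a6, Col6a4, Col6a5, Col6a6, Col7a1, Col10a1, Col13a1, Col17a1, Col19a1, Col20a1, Col22a1 and Col24a1, with at most 59 reads in any library. Among them Col19a1, a fibril-associated collagen, had 31.1 and 21.2 normalized counts in the matching pair and at most 3.81 in the other 10 libraries. Per kilobase of annotated exon, the highest mean normalized counts over 12 libraries belonged to Col1a2 at 86.2, Col1a1 at 81.5, Col3a1 at 58.5 and Col15a1 at 51.4. They were followed by Col12a1 at 30.3, Col6a1 at 25.7 and Col4a1 at 24.8. The chains of type I and type III collagen thus stood above the type IV chains on this per-length scale, in cells sorted as astrocytes.

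**Figure D1:**
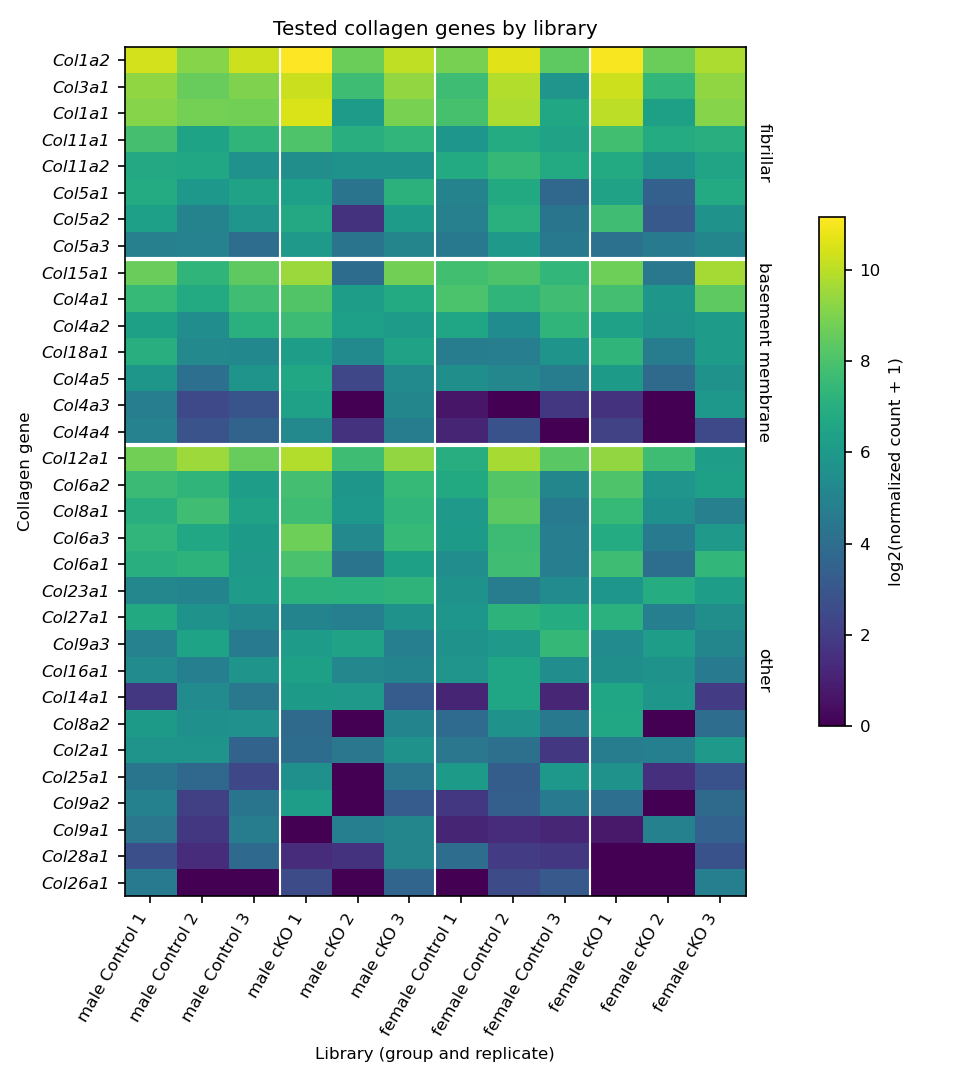
Level of the 32 tested collagen genes (y axis) in each of the 12 libraries (x axis), as log2(normalized count + 1) shown by colour, with the 3 classes separated by white lines and each class ordered by mean. The columns of male cKO 2 and female cKO 2 are dark across most fibrillar and basement membrane genes, and male cKO 1 is bright.

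Collagen reads were a small share of each library, and this share varied least among the male controls. Over the 44 genes, they made up 0.0919% to 0.143% of reads for male controls against 0.0336% to 0.223% for the labelled male cKO, and 0.0440% to 0.198% against 0.0318% to 0.206% for females. The matching pair held the lowest shares of the 12 libraries. The summed normalized count of the fibrillar genes was 2470.0 ± 703 for controls against 3055 ± 2356 for cKO in males, and 1984 ± 1798 against 2820 ± 2148 in females (SD, n = 3 each). For the basement membrane genes the sums were 687 ± 267 against 844 ± 645 in males and 600.2 ± 61.2 against 849 ± 629 in females. For the other genes they were 1414 ± 354 against 1705 ± 877 and 1355 ± 902 against 1195 ± 753. In each class the groups overlapped. The SD was a large part of the mean in both cKO groups, and also in female controls for the fibrillar and other genes.

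Among the fibrillar genes, the 3 most abundant varied together from library to library. Col1a2, the second chain of type I collagen, had 1347, 567 and 1286 normalized counts in controls against 2284, 405 and 1103 in cKO for males, and 469, 1629 and 335 against 2147, 399 and 883 for females, with libraries 1 to 3 of each group in that order. The highest and the lowest male libraries were both labelled cKO. Col1a1, the first chain of type I collagen, had 558, 454 and 446 normalized counts in controls against 1481, 70.6 and 477 in cKO for males, and 242, 889 and 97.8 against 1053, 79.1 and 568 for females. Col3a1, the single chain of type III collagen found in vessel walls and reticular tissue, had 629.6, 374 and 514 normalized counts in controls against 1245, 206 and 659.7 in cKO for males, and 205, 937 and 55.9 against 1270, 166 and 623 for females. The matching pair, the second value of each cKO group, was the lowest of its group for all of these genes.

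The type XI chains, which in cartilage join type II collagen in thin fibrils, behaved differently from each other. Col11a1 had 231, 87.2 and 159 normalized counts in controls against 267, 129 and 159.6 in cKO for males, and 57.8, 117 and 86.3 against 218, 114 and 131 for females. In females 2 of the 3 labelled cKO libraries were above every control, and the matching library was within the control range. Col11a2 had 105, 103 and 49.3 in controls against 44.4, 49.8 and 51.3 in cKO for males, and 111, 169.8 and 112 against 112, 54.0 and 89.5 for females. The type V chains, which start fibril assembly, had lower counts, from 9.65 to 144 for Col5a1, from 2.08 to 210.2 for Col5a2 and from 15 to 64.0 for Col5a3. The lowest value of Col5a1 and of Col5a2 was again in the matching pair.

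Col15a1 was the most abundant basement membrane collagen gene, and it showed the widest gap between the matching pair and the rest. It encodes a chondroitin sulfate collagen that links basement membranes to the fibrils beside them. Col15a1 had 386, 156 and 330.0 normalized counts in controls against 719, 14.5 and 439 in cKO for males, and 218, 262 and 169 against 409, 21.2 and 793 for females. The 4 labelled cKO libraries outside the pair lay above all 6 controls, and the pair lay far below them. Col18a1, the related collagen whose cleaved end is endostatin, had 129, 37.1 and 36.4 normalized counts in controls against 72.5, 39.4 and 85.5 in cKO for males, and 25.2, 26.2 and 54.6 against 159, 25.1 and 71.6 for females. The library labelled female cKO 1 was the highest for this gene and female cKO 2 the lowest.

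The paired chains of type IV collagen, the main network of basement membranes, varied less. Col4a1 had 177, 111 and 212 normalized counts in controls against 278, 74.7 and 113 in cKO for males, and 258, 159 and 213 against 227, 59.8 and 338 for females. Col4a2 had 79.4, 43.8 and 135 in controls against 201, 78.9 and 71.2 in cKO for males, and 95.3, 42.3 and 156 against 81.4, 54.0 and 68.6 for females. The pair was lowest for Col4a1 but lay inside the control range for Col4a2. Col4a3 and Col4a4, chains best known from the kidney filter, were scarce and uneven. Col4a3 had 26.6, 4.59 and 6.43 normalized counts in controls against 82.8, 0 and 34.2 in cKO for males, and 0.615, 0 and 2.54 against 2.09, 0 and 61.1 for females. A count of 0 allows up to 3 reads, which is 6.23 normalized counts in male cKO 2, 5.79 in female cKO 2 and 1.67 in female Control 2, counting error only. Col4a4 had 29.6, 6.26 and 10.7 in controls against 36.7, 2.08 and 25.6 in cKO for males, and 1.23, 6.12 and 0 against 3.48, 0 and 4.47 for females. Both genes were below every male control in all 3 female controls.

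Among the other collagens, Col12a1, a fibril-associated collagen, had the highest counts. Col12a1 had 441, 736 and 373 normalized counts in controls against 923, 208 and 655 in cKO for males, and 122, 820.0 and 317 against 655, 208 and 73.1 for females. The type VI chains form beaded filaments next to cells. Col6a2 had 195, 156 and 75.0 normalized counts in controls against 225, 58.1 and 175 in cKO for males, and 108, 284 and 34.3 against 267, 56.0 and 79.0 for females. Col6a3 had 163, 98.0 and 66.4 in controls against 416, 37.4 and 179.5 in cKO for males, and 66.4, 198 and 26.7 against 114, 23.2 and 65.6 for females. Col8a1, a network collagen of vessels and the eye, had 128, 212 and 85.7 normalized counts in controls against 207, 60.2 and 159.6 in cKO for males, and 62.1, 321 and 24.1 against 179.6, 48.2 and 28.3 for females. For these 4 genes the groups overlapped in both sexes.

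Col23a1 did not share the library pattern of the fibrillar genes. It encodes a transmembrane collagen. Col23a1 had 35.2, 31.3 and 68.6 normalized counts in controls against 145, 139 and 151 in cKO for males, and 51.6, 25.1 and 40.6 against 57.8, 118 and 76.0 for females. In each sex every labelled cKO library was above every control, the matching pair included, although male Control 3 was above female cKO 1. Col8a2, the second type VIII chain, ran the other way in males. It had 66.8, 47.1 and 49.3 normalized counts in controls against 13.7, 0 and 31.3 in cKO for males, and 14.1, 50.7 and 21.6 against 98.8, 0 and 14.9 for females. Its female groups overlapped. Col2a1, the chain of cartilage type II collagen, had 54.3, 53.8 and 10.7 in controls against 14.5, 20.8 and 52.7 in cKO for males, and 20.3, 16.1 and 2.54 against 25.8, 27.0 and 64.1 for females. Its female groups did not overlap, and its male groups did.

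**Figure D2:**
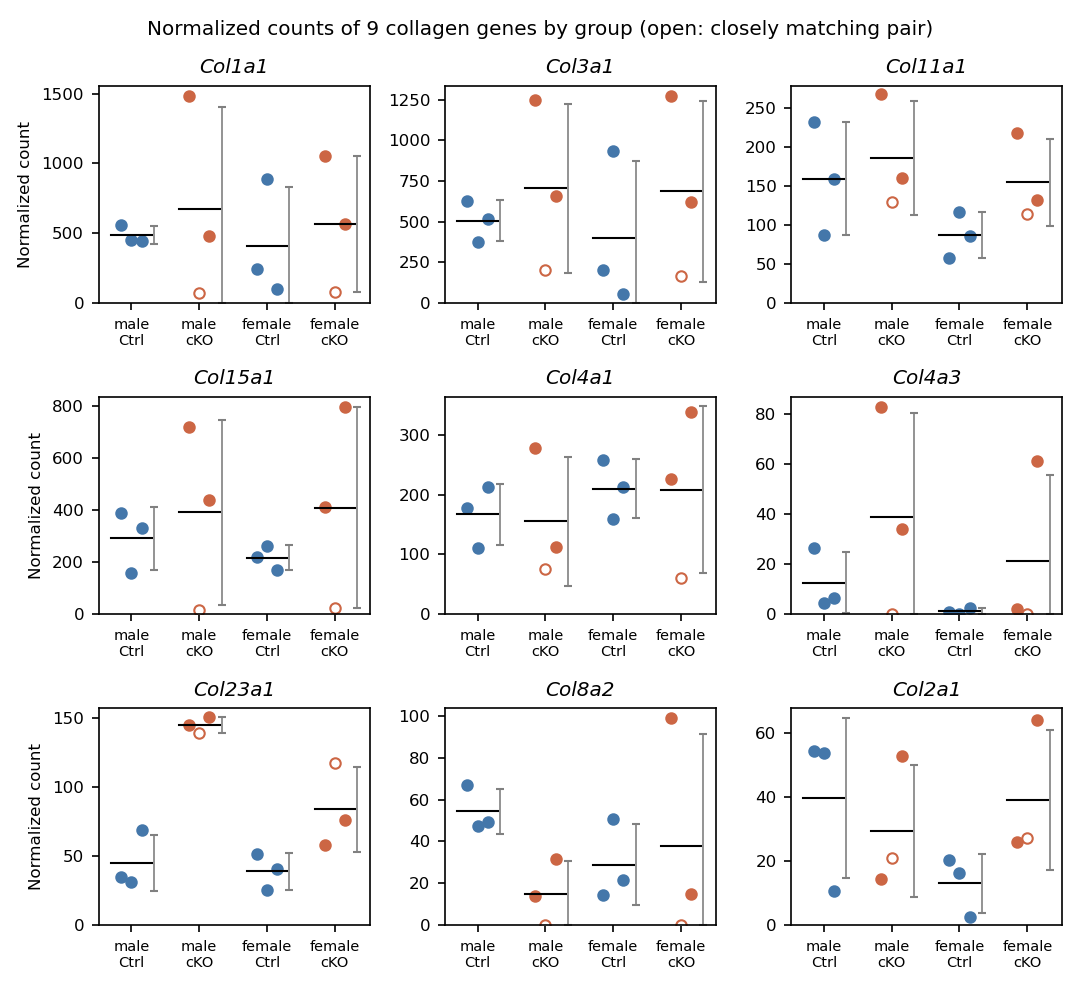
Normalized counts (y axis) of 9 collagen genes in the 4 groups of sex and genotype, with 1 point per library, a horizontal line at the mean and a grey bar of ± 1 SD (n = 3). Open points are the matching pair, which lies lowest in its groups for Col1a1 and Col15a1. For Col23a1 all cKO points, the pair included, lie above the controls of their sex.

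The first comparison asked how the labelled cKO differed from control in each sex and on average. No collagen gene passed limma's test at an adjusted p of 0.05 in the average of the sexes, in males or in females, and 0% of the 13269 genes tested passed in each. At an unadjusted p under 0.05, 1 of 32 tested collagens was reached in the average, 1 in males and 0 in females, against 9.01%, 8.82% and 3.55% of all genes tested. With edgeR on the recovered reads 0 collagens passed, as did 0% of all genes tested, and with DESeq2 1 passed, Col23a1 in the average. DESeq2 gave no adjusted p for 27 of the 32 collagens in males and for 2 in the average, so those members could not be called there.

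Col23a1 had the smallest p of the collagens in the average and in each sex. Its log2 fold change, taken on the log2(normalized count + 1) scale as are those below, was 1.42 ± 0.38 (SE) in the average with a limma adjusted p of 0.339. It was 1.75 ± 0.54 in males (adjusted p = 0.383, limma) and 1.08 ± 0.54 in females (adjusted p = 1.00, limma). DESeq2 gave 1.41 ± 0.37 with an adjusted p of 0.0485, where it called 0.294% of all genes tested, counting those without an adjusted p as not called. edgeR gave 1.38 with an adjusted p of 0.418. Both fits took the matching pair as 2 separate libraries and were not rerun without it. Whether the DESeq2 call holds without the pair was therefore not tested. The female effect minus the male effect of Col23a1 was -0.67 ± 0.76. Without the matching pair the average was 1.29 ± 0.44 (limma adjusted p = 0.531), and without both cKO libraries numbered 3 it was 1.42 (limma adjusted p = 0.370). Non-overlap of the 3 cKO and 3 control libraries in the higher direction was found for 6.71% of all genes tested in males and 4.39% in females. In the lower direction the shares were 6.91% and 4.72%. Over both sexes together the 6 cKO and 6 control libraries overlapped for every tested collagen, and 0.181% (higher) and 0.332% (lower) of all genes did not overlap. The tested collagens with this property were Col23a1 (higher) and Col8a2 (lower) in males and Col23a1 and Col2a1 (both higher) in females.

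Col8a2 and Col11a2 followed in the average. Col8a2 had a log2 fold change of -1.99 ± 0.98 in the average (adjusted p = 0.559, limma) and -2.81 ± 1.38 in males (adjusted p = 0.582, limma). The matching pair had 0 counts of Col8a2, and without it the values were -0.36 ± 0.62 and -1.33 ± 0.87. DESeq2, which models the reads, gave -0.72 in the average with 12 libraries. Col11a2 had -0.69 ± 0.35 in the average (adjusted p = 0.564, limma). In females, Col2a1 had 1.75 ± 0.92 and Col11a1 0.82 ± 0.47 (limma adjusted p = 1.00 for both).

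In the limma fit with 12 libraries the tested collagens showed no common direction. In the average, 16 of 32 had a log2 fold change above 0, against 48.3% of all genes tested, and their median was -0.03, against -0.02 over all genes. The medians were 0.04 for the fibrillar, 0.03 for the basement membrane and -0.18 for the other collagens. In males 17 of 32 were above 0, against 46.3% of all genes, with a median of 0.01. In females 16 of 32 were above 0, against 49.8%, with a median of -0.05. The fits to the reads of the same libraries differed in sign for several members. With edgeR and DESeq2, Col11a2 was the only fibrillar gene below 0 in the average. The basement membrane and other classes held both signs there.

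Without the matching pair, most tested collagens had higher values in the labelled cKO libraries, and still 0 passed the test. In the average 25 of 32 lay above 0, against 48.6% of all genes tested, and the median was 0.80, against -0.02 over all genes. The medians were 0.89 for the fibrillar, 1.07 for the basement membrane and 0.32 for the other collagens, and all 7 tested basement membrane genes lay above 0. In males 27 of 32 were above 0, against 48.3%, with a median of 0.64. In females 22 of 32 were above 0, against 49.7%, with a median of 0.73. These medians came from 2 labelled cKO libraries in each sex, of which number 3 had Nkx6-1 reads. Leaving out the libraries numbered 3 in place of the pair gave medians of -0.14, -0.38 and 0.02 for the fibrillar, basement membrane and other collagens.

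**Figure D3:**
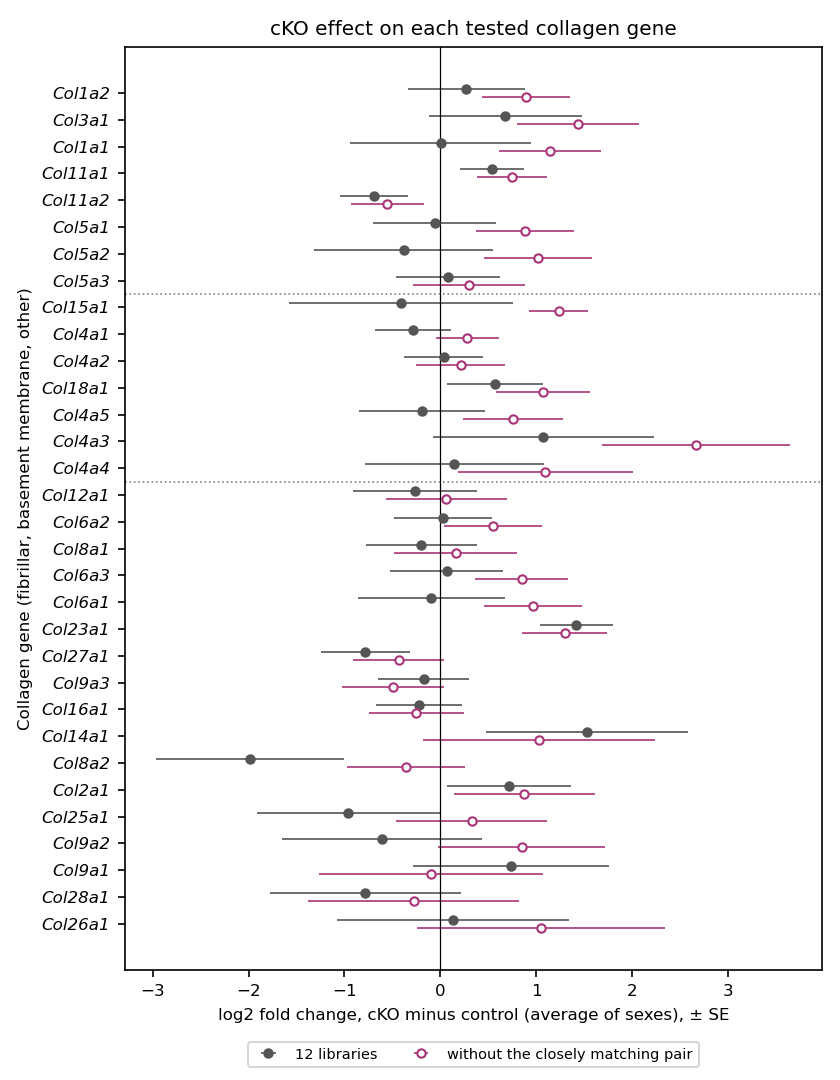
Log2 fold change of cKO against control, averaged over the sexes, with its SE (x axis) for each tested collagen gene (y axis), grouped as fibrillar, basement membrane and other from top to bottom. Filled points use 12 libraries and open points leave out the matching pair, which moves the median from -0.03 to 0.80 while Col23a1 is at 1.42 and 1.29.

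The limma average of Col15a1 depended strongly on the pair, as did those of Col8a2 and Col4a3. With 12 libraries the limma log2 fold change of Col15a1 was -0.41 ± 1.17. The fits to the reads of the same libraries, pair included, had the other sign, with 0.67 ± 0.84 from DESeq2 and 0.66 from edgeR. Without the pair limma gave Col15a1 1.23 ± 0.30, with an unadjusted p of 0.000695 and an adjusted p of 0.433. In that set its 4 labelled cKO libraries lay above all 6 controls, as did those of 0.497% of all genes tested, and it was the only tested collagen for which this held. None of the collagens was lower in this way, against 0.784% of all genes. Col4a3 moved from 1.07 ± 1.15 to 2.66 ± 0.98, and DESeq2, with 12 libraries, gave it 3.08 ± 1.14 (adjusted p = 0.235). In the limma fits Col3a1 moved from 0.68 ± 0.80 to 1.44 ± 0.63. Col1a1 moved from 0.00 ± 0.94 to 1.14 ± 0.53 and Col18a1 from 0.57 ± 0.50 to 1.07 ± 0.49. At an unadjusted limma p under 0.05, 5 of 32 collagens were reached in the average, 2 in males and 5 in females, against 8.28%, 10.5% and 4.82% of all genes tested. The smallest adjusted p in the average was 0.433. In males without the pair the groups did not overlap for 7 higher and 1 lower collagens, against 12.6% and 14.1% of all genes. In females this held for 6 higher and 1 lower, against 9.96% and 9.44%.

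The study also asked whether the sexes differ. The female minus male difference of the cKO effects passed the limma test for 0 collagens and for 0% of all genes tested with 12 libraries. At an unadjusted p under 0.05 it was reached by 0 collagens and by 2.7% of all genes. The difference was above 0 for 19 of 32 tested collagens, against 52.6% of all genes. Without the pair it was above 0 for 17 of 32, against 52.3%, with 0 collagens passing against 0.00773% of genes and 0 at an unadjusted p under 0.05 against 6.84%. The smallest unadjusted p values among the collagens were those of Col2a1 at 2.07 ± 1.30, Col9a3 at -1.26 ± 0.95 and Col9a1 at 2.15 ± 2.04 (limma adjusted p = 1.00 for each). Single libraries moved these differences. Without male cKO 1 that of Col9a1 was 0.50, and over all libraries left out in turn it ran from 0.50 to 3.30. Without female Control 3 that of Col2a1 was 1.26 and that of Col9a3 was -0.74. Col9a1 and Col9a3 encode chains of the type IX collagen that coats type II fibrils. Col9a1 had 20.6, 2.5 and 25.7 normalized counts in controls against 0, 27.0 and 34.2 in cKO for males, and 1.23, 1.67 and 1.27 against 0.696, 28.9 and 10.4 for females. Col9a3 had 30.1, 87.2 and 23.6 in controls against 70.8, 85.1 and 27.1 in cKO for males, and 51.0, 64.6 and 171 against 41.1, 73.3 and 34.3 for females. Their library patterns were unlike each other, and the single male cKO library without Col9a1 reads was number 1.

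Among the controls, collagen values were lower in the female libraries for most tested genes, without a call. Of 32 tested members 9 lay above 0 for female minus male, against 44.3% of all genes tested, and the median was -0.53, against -0.07 over all genes. The fibrillar median was -0.72, and it was -0.12 without female Control 3 and -1.21 without female Control 2. In the same comparison 12 of 12 astrocyte markers were above 0 (median 0.89), and 8 of 12 fibroblast markers were below 0 (median -0.40). Their part in the collagen values was not tested. No collagen passed the limma test, as 0% of all genes did, and 0 reached an unadjusted p under 0.05, against 1.7% of all genes. In the fit without the pair, whose spread is estimated from 10 libraries, 0 collagens passed against 0.0387% of genes, and 1 reached an unadjusted p under 0.05, Col4a4, against 2.34%. Col4a4 had the smallest p at -2.45 ± 1.32, followed by Col2a1 at -1.59 ± 0.92 and Col11a1 at -0.81 ± 0.47 (limma adjusted p = 1.00 for each). The female and male controls did not overlap for Col4a3, Col4a4 and Col9a1, which were lower in females, against 4.96% of all genes in that direction. These separations were near the floor or narrow. Col4a3 and Col9a1 had 3 reads or fewer in each female control. For Col4a4 the highest female control lay only just below the lowest male control. The controls of the 2 sexes also did not overlap for Col11a2, which was higher in females, against 3.04%. Among the female controls, number 2 held the highest Col1a1 and Col3a1 counts and number 3 the lowest.

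Genes that make, bind or degrade collagen were read from 5 lists. With 12 libraries 0 genes of any of these lists passed the limma test in the average, in males or in females. With edgeR 0 passed, and with DESeq2 1 did, Sparc in males, where DESeq2 called 0.588% of all genes tested, against 0.0301% in females. These shares count genes without a DESeq2 adjusted p as not called. The share among genes with an adjusted p is therefore higher in males and is not given here. DESeq2 gave an adjusted p in males for 21 of the 84 tested genes of these lists. Of the synthesis and processing list 31 of 38 listed genes were tested, and 13 of them had an average log2 fold change above 0 (median -0.12). Sparc, a matrix protein that binds collagen and is made by astrocytes, had 3200, 2390 and 4340 normalized counts in controls against 6380, 6987 and 8941 in cKO for males, and 7100, 2932 and 6662 against 5212, 7094 and 5540 for females. Its male groups did not overlap, and its log2 fold change there was 1.2 ± 0.30 (adjusted p = 0.320, limma, and 0.0317, DESeq2). Without the pair 0 of the 31 tested genes of this list passed the limma test in males (smallest adjusted p = 0.248). DESeq2 was not rerun without male cKO 2, which belongs to the pair. Male cKO 1 and male cKO 3 were also above every male control for Sparc. Without female Control 2, a library outside this contrast that only enters the estimate of spread, limma gave the same fold change with an adjusted p of 0.0355 and called 0.236% of the genes tested. Its female log2 fold change was 0.19 ± 0.30. Colgalt2, which adds galactose to collagen, had -0.86 ± 0.50 in the average (limma adjusted p = 0.623).

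Of the collagen receptors 10 of 12 were tested and 4 were above 0 in the average (median -0.17). Itga10, an integrin chain that binds collagen, had -2.61 ± 0.94 (limma adjusted p = 0.456) at 0 to 27.9 normalized counts, and Adgrg1, a receptor for type III collagen, had 0.61 ± 0.39 (limma adjusted p = 0.659). Of the turnover genes 13 of 16 were tested and 5 were above 0 (median -0.12). Timp3, a matrix-bound inhibitor of collagen-degrading metalloproteinases, had 0.62 ± 0.21 (limma adjusted p = 0.450), and its relative Timp4 had 0.71 ± 0.36 (limma adjusted p = 0.561). Of the basement membrane partners 14 of 16 were tested and 7 were above 0 (median -0.02). Lamb2, a laminin chain of the vascular basement membrane, had 0.56 ± 0.28 (limma adjusted p = 0.562), and Hspg2, which encodes perlecan, had 0.59 ± 0.38 (limma adjusted p = 0.656).

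Of the fibril-associated partners 16 of 16 were tested and 9 were above 0 (median 0.10). Fmod, a small proteoglycan on collagen fibrils, had -1.39 ± 1.11 (limma adjusted p = 0.735), and Fbn2, a microfibril protein, had -0.97 ± 0.83 (limma adjusted p = 0.741). Without the matching pair the number above 0 in the average was 20 of 31 for synthesis, 5 of 10 for receptors, 10 of 13 for turnover, 9 of 14 for basement membrane partners and 11 of 16 for fibril partners. Again 0 of them passed the limma test. Hspg2 was then 1.12 ± 0.32 and Lamb2 0.82 ± 0.30.

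Some pairs of collagen chains, of the same type or of different types, varied together across libraries. Correlations of log2 values were computed for 12 pairs of chains and 16 pairs of a collagen and a marker list, 28 in all, over 11 samples with the matching pair averaged to 1, and 100000 permutations gave the p-values. Col1a1 and Col1a2 had Pearson's r = 0.92 (p = 1e-05, the smallest these permutations can give, adjusted p = 0.00028) and Spearman's rho = 0.90 (p = 0.0003, adjusted p = 0.0042). Leaving out the 2 samples farthest from the median gave r = 0.89, and centring each group without the pair gave 0.88. Col1a1 and Col3a1, chains of different collagen types, had r = 0.92 (permutation p = 3e-05, adjusted 0.00042). Their rho was 0.94 (permutation p = 6e-05, adjusted 0.00168), with r = 0.95 without the 2 farthest samples. Col6a1 and Col6a2 had r = 0.82 (permutation p = 0.00266, adjusted 0.0124) and rho = 0.83 (permutation p = 0.00299, adjusted 0.0209), with r = 0.63 without the 2 farthest samples.

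The neighbouring type IV genes were less uniform. Col4a1 and Col4a2, which share their start region, had r = 0.51 (permutation p = 0.112, adjusted 0.241) and rho = 0.60 (permutation p = 0.0573, adjusted 0.146), with r = 0.39 without the 2 farthest samples. Without the pair and with each group centred, r was 0.79. Col4a3 and Col4a4 had r = 0.71 (permutation p = 0.0171, adjusted 0.0531) and rho = 0.69 (permutation p = 0.0221, adjusted 0.0886), with r = 0.77 without the 2 farthest samples. Without the pair and with each group centred, r was 0.10. Col11a1 and Col11a2 had r = -0.41 (permutation p = 0.211, adjusted 0.369) and rho = -0.45 (permutation p = 0.173, adjusted 0.321), with r = -0.15 without the 2 farthest samples.

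Markers of fibroblasts varied with Col1a1 and, less closely, with Col15a1 across libraries. All 12 fibroblast and meningeal markers were read in 8 libraries and 11 in the other 4, where Crabp2 was at 0. Their summed normalized count was 14581 to 26919 for male controls against 5146 to 42050 for male cKO, and 6611 to 16870.0 against 5325 to 23062 for females. The matching pair had the lowest sums, as it had the lowest Col1a1. Col1a1 and the mean log2 level of this list had r = 0.89 (permutation p = 0.00014, adjusted 0.00131) and rho = 0.76 (permutation p = 0.00857, adjusted 0.0473), with r = 0.77 without the 2 farthest samples and 0.82 within groups without the pair. Col15a1 and the list had r = 0.79 (permutation p = 0.00468, adjusted 0.0187) and rho = 0.63 (permutation p = 0.0439, adjusted 0.145). That r was 0.83 without the 2 farthest samples, 0.62 without the pair and 0.65 within groups without the pair. In these sorted bulk samples, fewer cells of a type and less RNA per cell cannot be told apart, and the part of fibroblast RNA in the collagen differences was not tested.

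Dcn, which encodes the fibril-binding proteoglycan decorin and marks fibroblasts, had 18144, 5634 and 13255 normalized counts in controls against 29772, 1333 and 17206 in cKO for males, and 5413, 6240 and 1884 against 13073, 1405 and 16233 for females. Both members of the matching pair were below all other libraries, as for Col15a1. Its average log2 fold change was 0.21 ± 0.95 with 12 libraries and 1.45 ± 0.38 without the pair (limma adjusted p = 0.530), against -0.41 and 1.23 for Col15a1. Without the pair Dcn lay near the upper end of its list. Of the 12 fibroblast and meningeal markers, 6 were above 0 and 6 below in the average with 12 libraries (median -0.03). Without the pair 9 were above 0 and 3 below (median 0.28, range -1.48 to 1.48).

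Endothelial markers and Col4a1 parted in the matching pair. All 12 were read in every library, with sums of 2584 to 6382 for male controls against 3913 to 7615 for male cKO, and 2614 to 5778 against 3351 to 6834 for females. Col4a1 and this list had r = 0.36 (permutation p = 0.284, adjusted 0.419) and rho = 0.44 (permutation p = 0.183, adjusted 0.321). The value was r = 0.75 without the 2 farthest samples and 0.80 without the pair. In the pair the endothelial sums were 6896 and 6546, among the higher of the 12, while Col4a1 was at its lowest.

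Col23a1 went with the astrocyte markers. All 12 were read in every library, with sums of 16117 to 44269 for male controls against 81390 to 96938 for male cKO, and 16409 to 75676 against 37501 to 82244 for females. As for Col23a1, the male groups did not overlap. Col23a1 and the list had r = 0.77 (permutation p = 0.00701, adjusted 0.0245) and rho = 0.85 (permutation p = 0.00192, adjusted 0.0179), with r = 0.69 without the 2 farthest samples and 0.91 within groups without the pair. With the endothelial list Col23a1 had r = 0.55 (permutation p = 0.0835, adjusted 0.195) and rho = 0.61 (permutation p = 0.0517, adjusted 0.145). That r was 0.79 without the 2 farthest samples and 0.73 within groups without the pair. With the fibroblast and mural lists r was 0.03 and 0.23 (permutation p = 0.939 and 0.491, adjusted 0.939 and 0.598). Female Control 1 and female Control 3 had astrocyte sums of 75676 and 74498, close to the male cKO libraries, at 51.6 and 40.6 normalized counts of Col23a1. The part of astrocyte content in the Col23a1 difference was not tested.

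Other cell types that make collagen or share the sort were also present. Mural cell markers, 10 to 12 of 12 read per library, summed to 1337 to 2934 normalized counts, and Schwann cell markers, 5 to 7 of 8 read, to 918 to 4738. Oligodendrocyte markers, 12 of 12 read throughout, summed to 130334 to 466771, above the astrocyte sum in every library, and precursor markers to 12788 to 22043. The order depended on the measure. By mean log2 level the astrocyte list was above the oligodendrocyte list in the male cKO libraries and female cKO 2, and below it elsewhere. The means were 11.23 against 10.68 in male cKO 1 and 11.36 against 10.97 in male cKO 3. In the matching pair they were 11.25 against 11.12 and 11.24 against 11.13. Neuronal markers summed to 482 to 2824, microglial and macrophage markers to 1008 to 3271, ependymal markers to 87.2 to 549 and blood cell markers to 0 to 4552. The mural list gave r = -0.38 with Col1a1, r = -0.29 with Col15a1 and r = 0.15 with Col4a1 (permutation p = 0.255, 0.416 and 0.660, adjusted 0.418, 0.530 and 0.770), with rho of -0.38, -0.41 and 0.29 (permutation p = 0.248, 0.216 and 0.386, adjusted 0.385, 0.356 and 0.512).

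**Figure D4:**
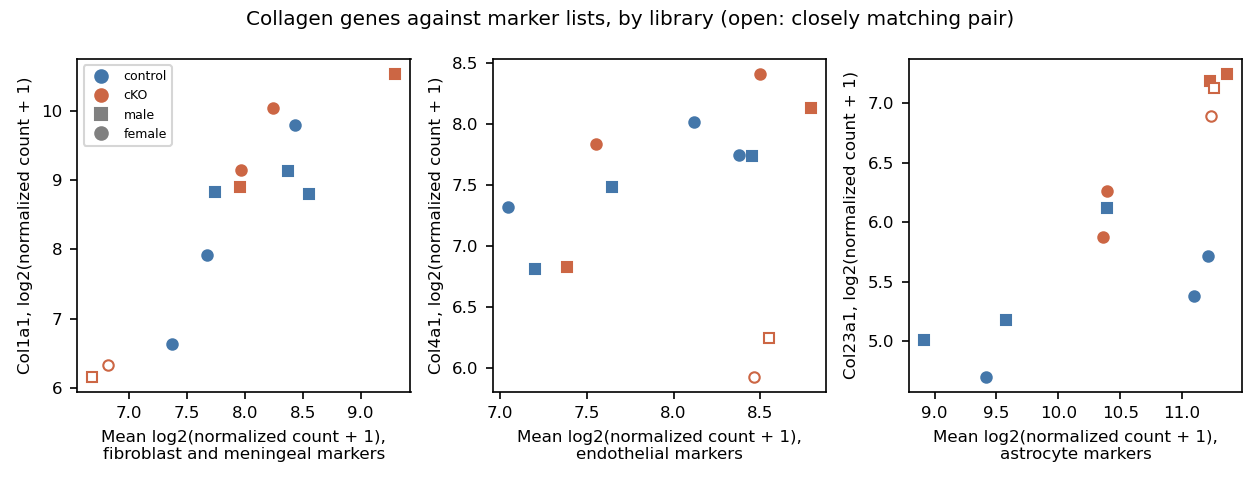
Log2(normalized count + 1) of Col1a1, Col4a1 and Col23a1 (y axes) against the mean log2 level of 12 fibroblast, 12 endothelial and 12 astrocyte markers (x axes), with 1 point per library. Squares are male, circles female, blue control and red cKO, and open points are the matching pair, which lies on the trend for Col1a1 and below it for Col4a1.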

How the data were processed

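Whole-transcriptome RNA was sequenced from 12 libraries of sorted spinal cord astrocytes, made from 10 ng of total RNA with the TRIO RNA-seq V2 kit in paired-end mode, per the labels' protocols. The submitters' processing notes name mm10, STAR 2.5.0a, DESeq2 1.20.0, FastQC 0.10.1 and MultiQC 0.9. The counting tool, annotation and use of strand are not given in the sources used here. The deposited values are a normalized signal per gene. In every library 100% of them were whole multiples of 1 step within a tolerance of 0.01 reads, so each was a count over a library factor, from which whole reads were recovered. A plan for raw counts with edgeR was replaced by its stated fallback for normalized values.

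limma-trend with robust variance was fitted to log2(value + 1) of the 12 libraries with 1 mean per group. The 13269 genes that reached a value of 10 in 3 or more libraries were tested, with Benjamini-Hochberg adjustment and a threshold of 0.05. Fold changes on this scale can differ in size or sign from those fitted to reads, and not only for low genes. In the average Col4a3 had 1.07 with limma and 3.08 with DESeq2, whereas Col8a2 had -1.99 and -0.72. The more abundant Col15a1 had -0.41 and 0.67. edgeR and DESeq2 were run on the recovered reads of all 12 libraries and not without the matching pair. The software was limma 3.58.1, DESeq2 1.42.0 and edgeR 4.0.16 under R 4.3.3. In data simulated as independent libraries, limma recovered 56.4% of 4-fold and 77.1% of 8-fold changes in the average of the sexes. Changes of that size can therefore be missed. Gene lengths and coordinates are from GENCODE M21 and promoter windows from RefSeq (GRCm38.p6).

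Members, classes and lists were chosen with earlier results of these data known. Named collagens were the 4 with the highest mean in each class and the 3 with the smallest p in each contrast. Others are given by range or were chosen after their values were seen. From each pathway list the 2 genes with the smallest p in the average were named, and Dcn was chosen after its values were seen. Sex-specific offsets in the deposited scaling were at most 0.031 on the log2 scale in any library. Floors and limits cover counting error only.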

Additional observations from a re-analysis of the deposited data

How the results depend on the processing

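A total of 35 results were recomputed under 22 alternatives, of which 12 left out 1 library each. The number of collagens called stayed at 0 in every contrast and alternative except with DESeq2 in the average, which gave 1. This was Col23a1 at 1.41 on the log2 scale with an adjusted p of 0.0485. The DESeq2 fit included the matching pair and was not rerun without it. The limma and edgeR adjusted p of Col23a1 in the average ran from 0.151 to 0.828 over the other alternatives. DESeq2 gave an adjusted p for 5 of the 32 collagens in males, Col23a1 not among them, so its 0 there covers those 5 alone. The median log2 fold change of the other collagens in females was -0.33 and became 0.50 without the matching pair, with a range of -0.78 to 0.50 when 1 library was left out. That upper end was reached without female cKO replicate 2. Each class median with 12 libraries was smaller than the pooled SD of the mean log2 level of its class within groups. Not all were small against it. For female minus male among controls the median was -0.72 against an SD of 1.05 (fibrillar) and -0.52 against 0.67 (other). Over the alternatives 12 of 15 class medians took both signs. Those that did not were the medians of female minus male among controls, which stayed below 0. Leaving out 1 library moved the fibrillar median in the average between -0.21 and 0.51, and the basement membrane median between -0.20 and 0.45. Of the named genes, Col8a2 in males ranged from -3.84 to -1.33. Its values and those of Col4a3 and Col4a4 depend on the pseudocount because several libraries hold 0 to 3 reads. The stricter filter removed Col4a4 and Col9a1.

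Replicate numbers did not pair the libraries. Deviations of same-numbered libraries had correlations of -0.107 to 0.595, the highest being the matching pair, with a median of 0.002, and 4 of 12 libraries correlated best with their own number. With a replicate block 0 collagens were called in the average, and Col23a1 was 1.42 with a limma adjusted p of 0.289.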
